A study of Mus musculus with 18 samples.

Results

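The genes described here are those whose RNA level moved the same way in every knockout library of 2 mouse models. RNA-seq was performed on embryonic day 15.5 (E15.5) cortices of wild-type Ctrl mice (C57BL/6), of F-cKO mice (Fto f/f, Emx1-cre) and of M-cKO mice (Mettl3 f/f, Emx1-cre), with 3 libraries in each group. A gene was taken when all 6 knockout libraries lay above all 3 Ctrl libraries in CPM (the reads of a gene per 1000000 counted reads of its library), or when all 6 lay below them. Of 55153 genes in the table, 31888 of them with at least 1 read, 3446 met this rule: 1510 were higher and 1936 lower in the knockouts, a balance that turned with the scaling (1761 and 1657 with TMM). In all, 3144 of the 3446 also passed a filter on low counts, 1458 of them higher (8.39% of the 17376 genes that passed) and 1686 lower (9.70%), and 302 did not pass (52 higher and 250 lower). Ribo-seq, which counts the mRNA fragments protected by ribosomes, was performed on the same 3 genotypes with 3 libraries each, and was not used to choose the genes.

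Fto removes and Mettl3 adds N6-methyladenosine, the most abundant internal mark of mRNA, and the deletions therefore act on opposite sides of this mark. In the developing cortex, radial glial cells line the ventricle and divide to give intermediate progenitors and neurons, deep-layer neurons are born before upper-layer neurons, and synaptic genes are switched on as neurons mature. Astrocytes appear from the same progenitors after most neurons have been made. Emx1-Cre is active in progenitors of the dorsal cortex and in their descendants, so cells from other sources, such as blood vessels, microglia and interneurons that migrate into the cortex, keep the floxed genes.

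Both knockouts carry Emx1-cre and were bred from floxed mice of a mixed C57/BL6 and 129 background. Ctrl was wild type, given as C57BL/6 by the labels, while the study's text calls its postnatal controls littermates. Whether the E15.5 Ctrl embryos shared the mixed background is not given, and Cre, any such difference and the deletions cannot be told apart in a change shared by both knockouts. Both comparisons also use the same 3 Ctrl libraries. A bulk sample does not separate fewer cells of a type from less RNA per cell.

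The RNA-seq libraries held between 18504094 and 22592406 counted reads, and the Ribo-seq libraries between 10973699 and 35853227. Among the deleted genes, Fto was at 143, 149 and 110.3 CPM in Ctrl and at 41.7, 98.8 and 32.2 CPM in F-cKO, so the second F-cKO library stood well above the other 2 and close to the lowest Ctrl library. Mettl3 was at 29.9, 33.5 and 26.0 CPM in Ctrl and at 43.9, 40.6 and 42.2 CPM in M-cKO. A gene total holds reads of exons outside the deleted ones and does not check the Mettl3 deletion. In Ribo-seq, Fto was at 279.6, 239.8 and 182 CPM in Ctrl and at 39.3, 25.2 and 43.9 CPM in F-cKO, and Mettl3 was at 38.6, 39.3 and 40.0 CPM in Ctrl and at 27.1, 27.0 and 28.2 CPM in M-cKO. Each knockout group was below Ctrl for its own deleted gene in Ribo-seq, with no overlap. Markers of cortical excitatory neurons were present in all RNA-seq libraries, with a summed level of 2417 to 2503 CPM in Ctrl, 2672 to 2768 CPM in F-cKO and 2925 to 3067 CPM in M-cKO.

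Ctrl replicate 3 was seldom the Ctrl library nearest to the knockouts, as it was for 85 higher genes of 1458, and for 196 lower genes of 1686. The higher genes held 10.3%, 10.2% and 9.19% of the counted reads in Ctrl replicates 1, 2 and 3. Their share lay between 12.4% and 13.0% over the knockout libraries. The lower genes held 15.1%, 14.8% and 16.5% in the Ctrl replicates and between 11.8% and 12.6% over the knockout libraries. The rule needs every library, so leaving a library out can only add genes. Without Ctrl replicate 3, 1693 genes were higher and 2463 lower, without F-cKO replicate 2, 1685 and 2244, and without Ctrl replicate 2, 2274 and 3029.

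The rule sets no size, and most of the differences were small. Among genes that passed the filter, the ratio of mean CPM between knockouts and Ctrl had a median of 1.33 for the higher genes, and the ratio of Ctrl to knockouts a median of 1.33 for the lower genes. A ratio of at least 2 was reached by 87 higher and 193 lower genes, and of at least 4 by 13 and 15. The gap between the nearest knockout and the nearest Ctrl library, on the log2(CPM + 0.5) scale used for gaps throughout, had a median of 0.10 in both directions and was at least 0.1 for 717 higher and 925 lower genes, those below the filter included. Just inside the rule, Lrch3 was at 19.0, 21.3 and 20.3 CPM in Ctrl, at 26.8, 30.8 and 30.4 CPM in F-cKO and at 23.4, 22.7 and 21.3 CPM in M-cKO. Plekha8 was the other protein-coding gene nearest to the limit on the higher side, with 34.5 to 42.4 CPM in Ctrl and 42.5 to 46.7 CPM in the knockouts. Just outside it, Tmem185a reached 32.2 CPM in Ctrl and had its lowest knockout library at 32.2 CPM, and Depdc1b met Ctrl at 6.82 CPM. On the lower side, 2 unannotated loci lay just inside, with the nearest Ctrl and knockout libraries both at 6.82 CPM and both at 2.30 CPM after rounding, and Med15 and Spryd3 lay just outside, where the libraries met at 66.9 CPM and at 54.2 CPM.

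The lists of mitosis and DNA replication had many members on the higher side, and promoters of some of them are shown first. Sequences are from RefSeq, assembly GRCm38.p6, and run 5′ to 3′ from 250 bases before to 50 bases after the annotated start. Capitals mark CCAAT, the box bound by NF-Y, on either strand, or, for Mcm3, TTCCCGC on either strand, a form of the E2F site. The 5 are among the members of the mitosis and DNA replication lists with the widest gap, and were picked after the windows were searched because they hold the motif of their set. Cenpf (chr1:189688037-189688336, minus strand) encodes a protein of the mitotic kinetochore, Mki67 (chr7:135716330-135716629, minus strand) the Ki67 antigen of cycling cells, Sgo1 (chr17:53689266-53689565, minus strand) the protector of centromere cohesion, and Mcm5 (chr8:75109259-75109558, plus strand) and Mcm3 (chr1:20820263-20820562, minus strand) are subunits of the replicative helicase.
Cenpf: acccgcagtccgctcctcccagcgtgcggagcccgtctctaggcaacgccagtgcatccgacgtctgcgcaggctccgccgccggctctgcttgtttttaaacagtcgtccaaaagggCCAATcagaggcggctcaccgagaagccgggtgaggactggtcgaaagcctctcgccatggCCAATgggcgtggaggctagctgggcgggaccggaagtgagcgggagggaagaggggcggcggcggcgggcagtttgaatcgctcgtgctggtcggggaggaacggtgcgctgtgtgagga
Mki67: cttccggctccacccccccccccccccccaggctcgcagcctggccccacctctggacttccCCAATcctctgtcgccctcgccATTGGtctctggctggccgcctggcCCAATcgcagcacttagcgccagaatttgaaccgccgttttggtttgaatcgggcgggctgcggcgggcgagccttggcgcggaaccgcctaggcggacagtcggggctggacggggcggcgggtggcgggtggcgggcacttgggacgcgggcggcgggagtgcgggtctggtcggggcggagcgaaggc
Sgo1: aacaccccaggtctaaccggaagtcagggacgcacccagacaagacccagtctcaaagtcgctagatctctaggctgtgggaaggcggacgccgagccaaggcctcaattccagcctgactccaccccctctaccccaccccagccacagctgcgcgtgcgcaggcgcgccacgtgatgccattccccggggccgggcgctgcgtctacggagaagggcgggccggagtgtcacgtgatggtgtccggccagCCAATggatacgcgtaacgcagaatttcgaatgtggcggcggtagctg
Mcm5: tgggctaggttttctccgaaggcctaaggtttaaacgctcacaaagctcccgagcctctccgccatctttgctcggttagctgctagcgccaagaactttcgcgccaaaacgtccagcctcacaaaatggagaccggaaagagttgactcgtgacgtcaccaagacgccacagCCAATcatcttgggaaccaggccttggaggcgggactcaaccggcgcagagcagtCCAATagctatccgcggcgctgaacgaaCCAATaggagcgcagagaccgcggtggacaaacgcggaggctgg
Mcm3: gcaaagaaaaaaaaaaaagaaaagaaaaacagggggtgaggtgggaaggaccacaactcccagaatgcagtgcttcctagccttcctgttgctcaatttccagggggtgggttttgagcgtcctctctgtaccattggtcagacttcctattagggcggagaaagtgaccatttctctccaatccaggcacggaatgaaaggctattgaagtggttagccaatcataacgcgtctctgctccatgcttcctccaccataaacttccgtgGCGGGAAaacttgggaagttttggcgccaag
CCAAT was found in 13 of the 17 promoter windows of higher mitosis genes (76.5%) and in 11 of the 19 windows of higher DNA replication genes (57.9%), compared with 37.3% of the windows of all genes that passed the filter and 37.4% of all windows in the table. TTCCCGC was in 9 of the 19 replication windows (47.4%) and 0 of the 17 mitosis windows, against 7.79% over genes that passed the filter and 4.60% over the whole table. Over all higher genes with a window (1132 genes, 1451 windows), CCAAT was in 41.7% and TTCCCGC in 10.4%, and over all lower genes (1191 genes, 1626 windows) in 33.6% and 6.95%. TATAAA, the TATA box, was in 6.00% of higher and 8.49% of lower windows, against 7.44% over genes that passed the filter. GGGCGGG, an Sp1 box, was in 49.4% and 41.9%, against 44.2%. TTTGAAA, the cell cycle homology region, was in 6.27% of higher windows and in 65 of the 1626 lower windows, against 4.16%. The other motifs searched on both strands were CCGGAAG of the Ets factors, GCGCATG of Nrf1, TGACGTC of the CRE, and the E-boxes CACGTG and CAGATG. They were in 5.03% to 15.2% of higher and 5.41% to 12.9% of lower windows, against 5.02% to 15.3% over genes that passed the filter. CACGTG can overlap TGACGTC at their ends, and a match is a description of letters, not of binding.

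Among all genes that passed the filter, 8.39% were higher and 9.70% lower by the rule, and each list below is given beside these shares. The lists were described without a test, because their members were chosen on this contrast. Of 30 mitosis and kinetochore genes, 20 were higher (66.7%) and 0 were lower. Mki67 was at 134, 125 and 116 CPM in Ctrl, at 213, 211 and 295 CPM in F-cKO and at 243, 232 and 181 CPM in M-cKO. The third F-cKO library was the highest and the groups did not overlap, with a ratio of means of 1.84. Cenpf was at 47.8, 46.0 and 43.5 CPM in Ctrl and at 69.5 to 97.9 CPM in the knockouts. Sgo1 had 9.40 to 11.5 CPM in Ctrl and 15.6 to 20.0 CPM in the knockouts. The 20 also included the kinases Aurka, Aurkb, Plk1 and Bub1, the cyclin Ccnb1, the spindle protein Aspm and the topoisomerase Top2a. Over the 30 genes the fitted log2 fold change of both knockouts had a median of 0.64, compared with -0.01 over all genes tested.

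Of 23 DNA replication genes, 17 were higher (73.9%) and 0 lower, with a median log2 fold change of 0.46. All 6 subunits of the MCM helicase were among them. Mcm5 was at 48.9, 50.2 and 40.3 CPM in Ctrl, at 77.0, 72.5 and 78.0 CPM in F-cKO and at 76.2, 70.8 and 86.1 CPM in M-cKO, 1.65 times the Ctrl mean. Mcm2 was at 47.7 to 62.9 CPM in Ctrl and at 84.4 to 104 CPM in the knockouts, and Mcm3 at 32.8 to 45.6 and 60.0 to 88.4 CPM. Ctrl replicate 3 was the lowest library for all 3 of these subunits.

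Radial glia genes split. Of 17 genes of radial glia identity, 5 were higher (29.4%) and 4 lower (23.5%). The higher genes were the transcription factors Sox2, Sox9 and Hes1, the receptor Notch1 and Id4, an inhibitor of basic helix-loop-helix factors. Notch1 was at 77.3, 78.8 and 58.4 CPM in Ctrl and at 121 to 141 CPM in the knockouts. Id4 was at 109, 93.7 and 67.6 CPM in Ctrl, at 155, 181 and 177 CPM in F-cKO and at 205, 197 and 178 CPM in M-cKO. The lower genes were Fabp7, a lipid-binding protein of radial glia, the glutamate transporter Slc1a3, Hopx, which marks outer radial glia, and Tnc, an extracellular matrix glycoprotein. Tnc was at 233, 245 and 294 CPM in Ctrl, at 171, 167 and 158 CPM in F-cKO and at 73.4, 83.0 and 93.2 CPM in M-cKO, with the M-cKO libraries lowest. Pax6 was not a member, at 49.1 to 70.9 CPM in Ctrl and 67.6 to 122 CPM in the knockouts.

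Among 10 genes of intermediate progenitors, 4 were higher (40.0%) and 0 lower. Neurog1, a proneural factor, was at 2.48, 1.93 and 0.270 CPM in Ctrl, at 4.76, 6.03 and 8.45 CPM in F-cKO and at 2.88, 2.93 and 5.41 CPM in M-cKO. Btg2, an antiproliferative gene of neurogenic divisions, was at 27.6 to 40.2 CPM in Ctrl and at 51.7 to 71.4 CPM in the knockouts, and Gadd45g at 36.4 to 62.7 and 69.0 to 96.9 CPM. In the study's longer lists of genes of RGCs (the radial glial cells) and of IPs (the intermediate progenitors), taken by the study from earlier transcriptome reports, 143 of the 465 RGC genes that passed the filter were higher (30.8%) and 37 lower (7.96%), and 94 of 322 IP genes were higher (29.2%) and 23 lower (7.14%). In the RGC list the widest gaps were those of Slco1c1, a thyroid hormone transporter, with 37.5 to 57.6 CPM in Ctrl and 10.6 to 22.6 CPM in the knockouts, and of Etv4, with 15.3 to 19.9 and 7.59 to 9.20 CPM. Acvr2b, an activin receptor, was at 11.8 to 16.0 CPM in Ctrl and 25.02 to 31.4 CPM in the knockouts. In the IP list the DNA repair gene Brca1 was at 11.4 to 15.6 and 24.0 to 28.5 CPM, Rgs8 at 24.0 to 27.2 and 41.7 to 72.9 CPM, and Akna, a centrosomal protein of delaminating progenitors, at 12.5 to 19.6 and 29.2 to 40.0 CPM.

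Genes of early-born and of late-born neurons are given next. Of 10 deep-layer genes, 5 were higher (50.0%) and 2 lower (20.0%), and of 9 upper-layer genes 0 were higher and 3 lower (33.3%). Bcl11b, the factor of subcerebral projection neurons, was at 267, 249 and 220.5 CPM in Ctrl, at 406, 383 and 366 CPM in F-cKO and at 477, 466 and 402 CPM in M-cKO. Tbr1, which marks layer 6, was at 246, 238 and 224 CPM in Ctrl and at 308 to 351 CPM in the knockouts. Fezf2, Sox5 and Neurod6 were the other higher genes of the list. The lower genes of the deep-layer list included Crym, at 85.0 to 94.5 CPM in Ctrl and 19.1 to 44.7 CPM in the knockouts, the widest gap of that list. Mef2c, a transcription factor of maturing neurons, was at 302 to 459 CPM in Ctrl, 200.2 to 264 CPM in F-cKO and 164 to 184 CPM in M-cKO, and Cux2 was only just separated, at 139 to 156 and 116 to 135 CPM.

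Among genes of synaptic transmission and excitability, more met the rule on the lower than on the higher side, and most met it on neither. Of 38 genes of glutamate receptors and postsynaptic scaffolds, 2 were higher (5.26%) and 11 lower (28.9%). Grm2, a metabotropic glutamate receptor that restrains transmitter release, was at 29.8, 29.7 and 41.8 CPM in Ctrl, at 14.5, 13.3 and 11.5 CPM in F-cKO and at 15.1, 13.9 and 14.8 CPM in M-cKO. The scaffold Dlg2 was at 139 to 192 CPM in Ctrl and 75.1 to 111 CPM in the knockouts, and Grin1, the obligatory NMDA receptor subunit, at 25.3 to 35.1 and 15.2 to 20.6 CPM. Of 26 presynaptic genes, 2 were higher (7.69%) and 9 lower (34.6%). The SNARE protein Stx1a was at 78.7, 79.9 and 95.3 CPM in Ctrl and at 47.6 to 63.3 CPM in the knockouts, Syt4 at 242 to 338 and 123 to 197 CPM, and the vesicle protein Syn1 at 105 to 111 and 63.3 to 89.1 CPM.

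Of 39 voltage-gated and calcium release channels, 1 was higher (2.56%), the potassium channel Kcna1, and 13 were lower (33.3%). Itpr1, the IP3 receptor of the endoplasmic reticulum, was at 116, 120.3 and 143 CPM in Ctrl, at 87.5, 87.8 and 89.8 CPM in F-cKO and at 42.0, 50.0 and 52.4 CPM in M-cKO. The ryanodine receptor Ryr3 was at 75.1 to 82.7 CPM in Ctrl, 46.0 to 59.5 CPM in F-cKO and 36.5 to 42.7 CPM in M-cKO, and the calcium channel Cacna1d at 51.3 to 63.4 and 36.2 to 45.1 CPM in Ctrl and the knockouts. Of 12 GABA-A receptor subunits 4 were lower (33.3%) and 0 higher, among them Gabra2, Gabrb1 and Gabra5. Gabrb1 was at 18.5 to 26.3 CPM in Ctrl and 10.1 to 17.4 CPM in the knockouts, and Gabra5 was only just separated, at 19.6 to 34.7 and 9.34 to 19.5 CPM. Of 12 astroglial genes, 5 were lower (41.7%) and 0 higher. Sparcl1 was at 163, 142 and 182 CPM in Ctrl and at 69.7 to 103 CPM in the knockouts, and the bicarbonate transporter Slc4a4 at 26.9 to 29.6 and 15.2 to 22.9 CPM.

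**Figure D1:**
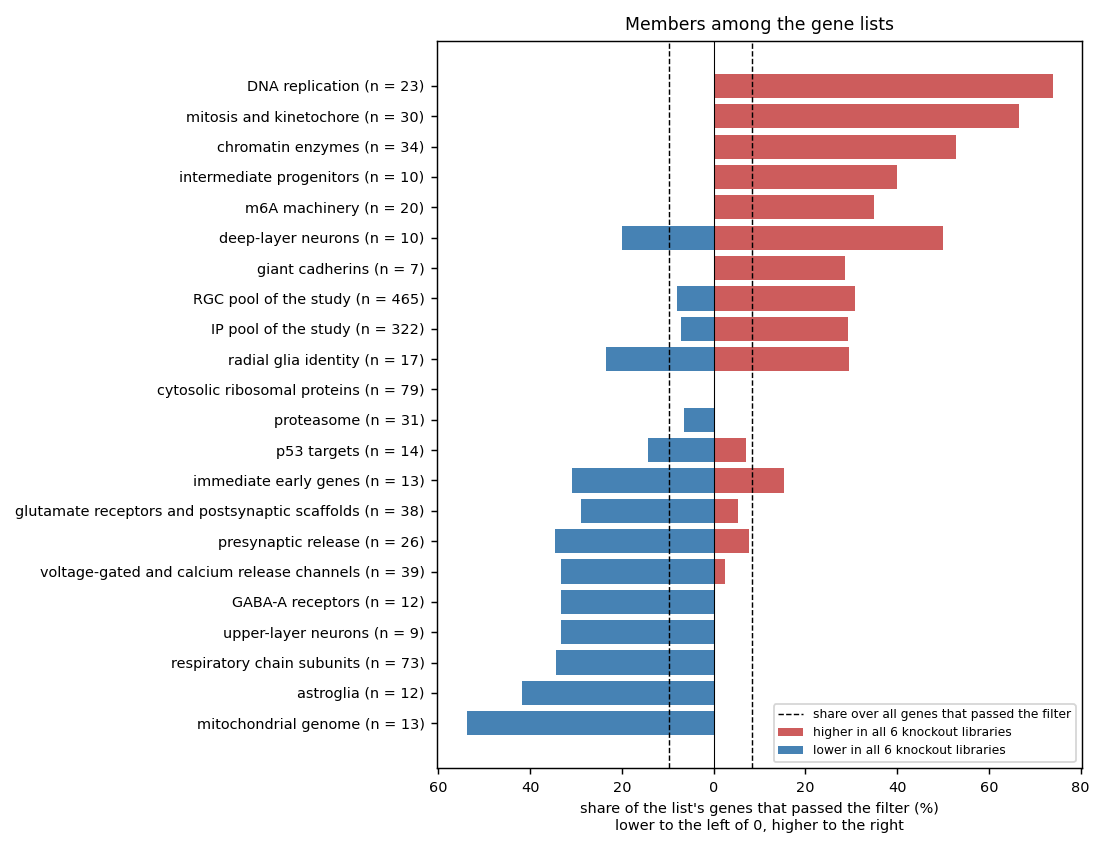
Share of the genes of each list that passed the filter and were higher (to the right of 0) or lower (to the left) in all 6 knockout libraries, in percent, with n the genes that passed. The dashed lines mark the shares over all genes that passed, 8.39% higher and 9.70% lower, and DNA replication and mitosis lie farthest to the right and the mitochondrial genome and astroglia farthest to the left.

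Chromatin enzymes, genes of the m6A machinery and giant cadherins are given next. Of 34 chromatin enzymes, 18 were higher (52.9%) and 0 lower. Arid1a, a subunit of the BAF remodelling complex, was at 278, 297 and 254 CPM in Ctrl, at 385, 366 and 358 CPM in F-cKO and at 419, 416 and 408 CPM in M-cKO. The histone methyltransferase subunit Setd1b was at 65.9 to 77.4 CPM in Ctrl and 93.0 to 110.4 CPM in the knockouts, and the acetyltransferase Kat6a at 141 to 155 and 186 to 216 CPM. Of 20 genes of the m6A machinery, 7 were higher (35.0%) and 0 lower. Rbm15, which recruits the methyltransferase complex, was at 21.7, 20.9 and 17.2 CPM in Ctrl, at 25.9, 28.2 and 27.6 CPM in F-cKO and at 55.7, 52.5 and 46.3 CPM in M-cKO. Virma, a subunit of the same complex, was at 66.3 to 75.01 CPM in Ctrl and 86.8 to 102 CPM in the knockouts, and the reader Igf2bp2 at 29.9 to 44.4 and 52.0 to 72.6 CPM. Of the 7 giant cadherin genes that passed the filter, 2 were higher (28.6%), Fat1 at 75.5 to 92.2 and 96.2 to 120.3 CPM and Celsr2 at 204 to 246 and 252 to 343 CPM in Ctrl and the knockouts.

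Genes of energy metabolism and of other housekeeping machinery are given next. Of 73 nuclear genes of the respiratory chain, 25 were lower (34.2%) and 0 higher, with a median log2 fold change of -0.11. Ndufb9, of complex I, was at 43.7, 44.5 and 43.6 CPM in Ctrl and at 31.5 to 36.3 CPM in the knockouts, Uqcrb, of complex III, at 57.0 to 63.7 and 38.9 to 47.6 CPM, and Ndufs4 at 81.1 to 83.4 and 61.3 to 70.0 CPM. Of 13 protein genes of the mitochondrial genome, 7 were lower (53.8%) and 0 higher. The RNA of mt-Cytb was at 4376, 4112 and 5205 CPM in Ctrl, at 3014, 3084 and 3426 CPM in F-cKO and at 3127, 3134 and 2795 CPM in M-cKO, mt-Nd2 was at 1178 to 1441 CPM in Ctrl and 728 to 1007 CPM in the knockouts, and mt-Atp8 at 2.12 to 4.45 and 0.516 to 1.37 CPM. None of the 79 cytosolic ribosomal protein genes was a member in either direction. Of 31 proteasome genes 2 were lower (6.45%) and 0 higher, Psma4 at 141 to 155 and 129 to 138 CPM and Psmb6 at 194 to 207 and 170.2 to 191 CPM.

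Immediate early genes and p53 targets had members in both directions. Among 16 immediate early genes, of which 13 passed the filter, 2 were higher (15.4% of those that passed, against 8.39% of all genes) and 5 lower, including Egr4, which did not pass (30.8% without it, against 9.70%). Arc was at 2.16 to 3.34 CPM in Ctrl and 4.50 to 5.98 CPM in the knockouts, and Jun at 72.6 to 74.9 and 93.1 to 117 CPM. Nr4a2, also a marker of subplate neurons, was at 71.0, 54.3 and 75.3 CPM in Ctrl and at 30.4 to 41.1 CPM in the knockouts. Of 14 p53 targets, Zmat3 was higher, at 38.9 to 45.3 and 51.1 to 65.2 CPM, and Bbc3 (36.4 to 38.9 and 20.9 to 31.1 CPM) and Plk2 (152 to 167 and 95.8 to 139 CPM) were lower, shares of 7.14% and 14.3% that lie near those of all genes.

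The widest gaps were found outside most of these lists. On the lower side, Gfap, the intermediate filament of astrocytes, was at 18.2, 9.38 and 14.2 CPM in Ctrl, at 1.91, 2.11 and 1.88 CPM in F-cKO and at 0.797, 1.06 and 1.76 CPM in M-cKO. The Ctrl mean was 8.79 times that of the knockouts and the gap was 1.92. Dsc3, a desmosomal cadherin, was at 4.15, 2.71 and 3.78 CPM in Ctrl and at 0.133 to 0.406 CPM in the knockouts. Crym, a thyroid hormone-binding protein of deep-layer neurons, was at 85.0, 85.4 and 94.5 CPM in Ctrl, at 39.4, 44.7 and 35.1 CPM in F-cKO and at 19.1, 20.2 and 32.3 CPM in M-cKO. The deubiquitinase Usp43 (23.4 to 41.9 CPM in Ctrl and 4.69 to 10.2 CPM in the knockouts), the actin-oxidising enzyme Mical2 (42.4 to 65.1 and 14.7 to 21.1 CPM) and the tyrosine kinase Ptk2b (9.33 to 22.7 and 2.77 to 4.64 CPM) had gaps of 1.15, 0.99 and 0.93. For Usp43, Mical2, Ptk2b and Crym, Ctrl replicate 3 was the highest library.

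On the higher side, Hmga2, a chromatin architectural protein of early progenitors, was at 1.04, 1.40 and 1.19 CPM in Ctrl, at 4.72, 4.02 and 7.09 CPM in F-cKO and at 3.14, 4.55 and 4.01 CPM in M-cKO, a ratio of means of 3.79. The transcription factors Zfhx3, Six3 and Ebf2 followed. Six3 was at 2.98, 4.11 and 2.22 CPM in Ctrl, at 14.0, 11.1 and 7.56 CPM in F-cKO and at 22.0, 18.7 and 12.04 CPM in M-cKO. Zfhx3 was at 3.03 to 4.29 CPM in Ctrl and 8.10 to 18.1 CPM in the knockouts, and Ebf2 at 0.486 to 0.822 and 1.71 to 3.24 CPM. Shisa2, which retains Wnt and Fgf receptors in the endoplasmic reticulum, was at 15.1 to 23.9 CPM in Ctrl and 39.4 to 49.0 CPM in the knockouts, and Ercc6l, a mitotic helicase, at 4.59 to 6.59 and 10.96 to 14.6 CPM. The imprinted gene Peg10 was at 25.1 to 32.5 and 51.7 to 79.4 CPM. Hist1h3c, at 0.483 to 0.541 and 1.16 to 1.80 CPM, has near-identical copies in the genome, so the assignment of its reads is uncertain.

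**Figure D2:**
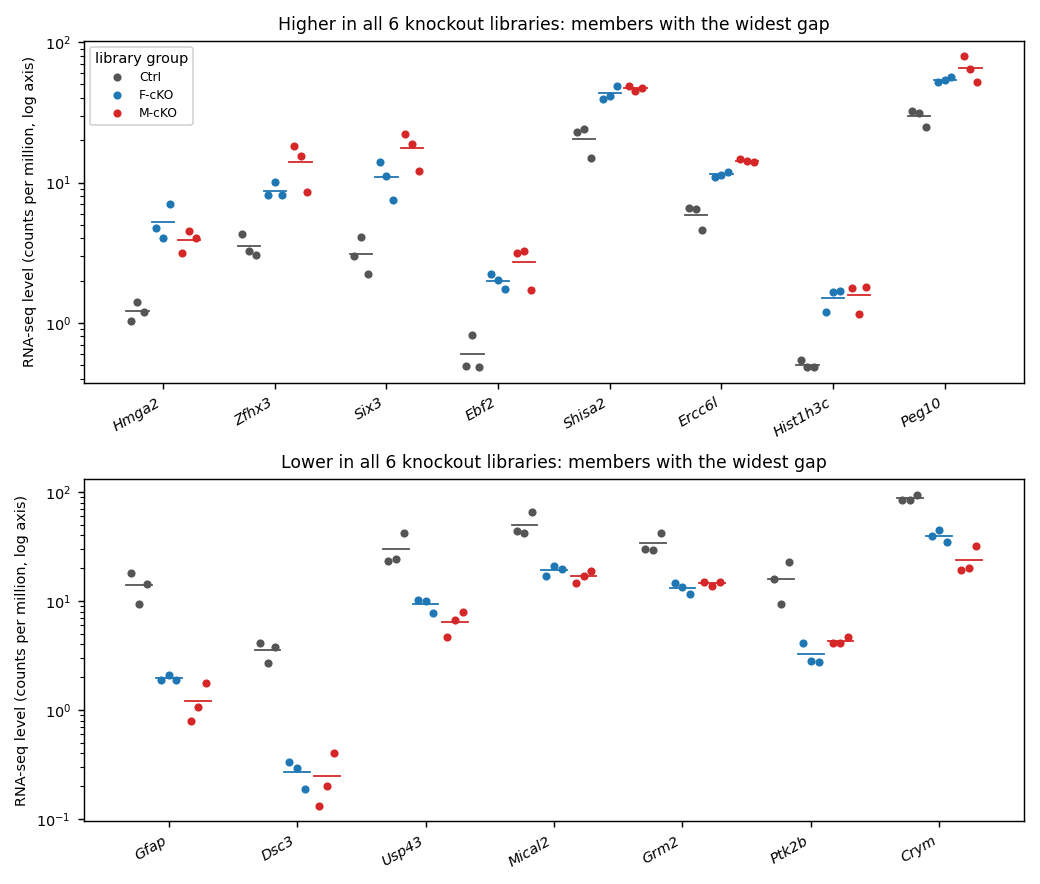
RNA-seq level in CPM, on a log axis, of protein-coding genes with the widest gap between knockout and Ctrl libraries, 8 higher and 7 lower. Points are libraries and bars group means (3 libraries each), and every knockout point lies beyond every Ctrl point, by the rule.

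Markers of other cells moved with some of these genes. The 7 striatal markers summed to 15.7 to 19.7 CPM in Ctrl, 21.9 to 52.0 CPM in F-cKO and 36.9 to 77.2 CPM in M-cKO, with no overlap between Ctrl and the knockouts, and 3 of them (Isl1, Ebf1 and Drd2) were higher members. The 11 markers of ganglionic eminence and interneurons summed to 465 to 475 CPM in Ctrl, 443 to 579 CPM in F-cKO and 629.5 to 846 CPM in M-cKO, and 5 of them (Dlx2, Gsx2, Nkx2-1, Lhx8 and Gad2) were higher members. Isl1 was at 3.43, 1.60 and 1.95 CPM in Ctrl, at 12.8, 7.70 and 3.71 CPM in F-cKO and at 21.4, 19.6 and 8.25 CPM in M-cKO. The third library was the lowest of its group in both knockouts, as it was for Six3. The part of tissue from outside the cortex in the levels of Six3, Zfhx3 and the other higher genes was not tested. Of 11 erythroid genes the embryonic globins Hbb-y and Hba-x were higher members, Hbb-y at 1.31, 0.532 and 0.0540 CPM in Ctrl, 6.43, 4.26 and 48.6 CPM in F-cKO and 1.90, 4.40 and 12.5 CPM in M-cKO, while the list summed to 382 to 712 CPM in Ctrl and 288 to 577 CPM in the knockouts. The part of a difference in stage within E15.5 was not tested.

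The other marker lists held few members, apart from the Cajal-Retzius list. Of its 6 markers 2 were higher and 2 lower (33.3% each, against 8.39% and 9.70% of all genes). Pericyte markers summed to 146 to 163 CPM in Ctrl and 109 to 142 CPM in the knockouts, with 1 of 5 a lower member (Rgs5), and endothelial markers to 185 to 194 and 149.6 to 202.5 CPM, with 1 of 9 a lower member (Flt1). None of the 9 microglial, 8 meningeal, 7 choroid plexus, 5 oligodendrocyte precursor or 5 sex markers was a member. The 5 sex markers hold Xist, expressed in females, and 4 genes of the Y chromosome. Xist was at 568, 540.3 and 911 CPM in Ctrl, at 299, 341 and 1020 CPM in F-cKO and at 0.0885, 145 and 371 CPM in M-cKO. Ddx3y of the Y chromosome was at 19.3, 21.5 and 17.0 CPM in Ctrl, at 20.8, 30.2 and 23.9 CPM in F-cKO and at 37.0, 29.0 and 9.33 CPM in M-cKO, so that Y-linked RNA was present in every library and Xist was near 0 in M-cKO replicate 1 alone. The part of sex in the levels of the shared genes was not tested. Meningeal markers summed to 99.4 to 201 CPM in Ctrl, 25.1 to 78.9 CPM in F-cKO and 54.2 to 273 CPM in M-cKO, and oligodendrocyte precursor markers to 65.1 to 107.5, 35.4 to 52.8 and 63.0 to 69.8 CPM. Choroid plexus markers ranged from 92.4 to 1039 CPM within Ctrl and from 348 to 752 CPM in the knockouts. Cajal-Retzius markers summed to 324 to 353 CPM in Ctrl and 369.9 to 415 CPM in the knockouts, with Reln and Ebf2 higher and Calb2 and Ndnf lower. Of the 5 thalamic and 7 epidermal markers, Lhx9 was higher and Dsc3 lower. Thalamic markers summed to 44.7 to 56.6 CPM in Ctrl and 58.3 to 71.0 CPM in the knockouts, and epidermal markers to 29.4 to 30.9 and 19.9 to 27.7 CPM. The part of these cells in the result was not tested. None of the marker genes was at 0 in every library of a group.

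Length was a property that the rule did not use. Transcript length was taken as the length implied by the authors' FPKM and the counts, over 13994 protein-coding genes that passed the filter. The share of higher genes was 3.75% in the shortest of 5 equal groups (median 1857 bases), 6.97%, 9.76% and 13.4% in the next 3 and 15.5% in the longest (median 10141 bases). The share of lower genes went the other way, from 13.3% and 11.1% to 9.72%, 9.93% and 8.07%. Higher genes had a median length of 5977 bases, lower genes of 4067 bases and all of these genes of 4568 bases. Level moved with membership too: over all genes that passed, from the lowest to the highest of 5 equal groups of mean CPM, the share of higher genes went from 1.75% to 14.3% and that of lower genes from 5.84% to 11.9%. A longer or more abundant transcript draws more reads, which narrows the spread between libraries, and the part of this in the shares was not tested.

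**Figure D3:**
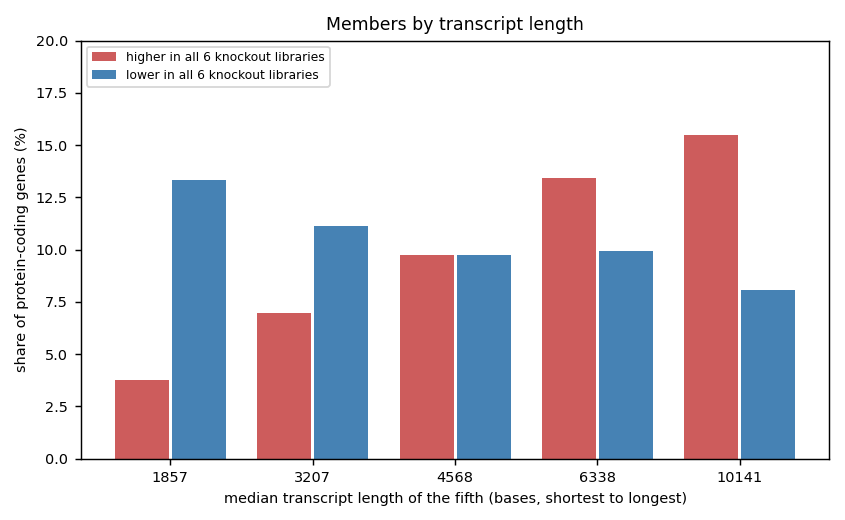
Share of protein-coding genes, in percent, that were higher or lower in all 6 knockout libraries, in 5 equal groups by transcript length (x axis, median length of the group in bases). The higher share goes from 3.75% to 15.5% and the lower share from 13.3% to 8.07%.

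By type, 1405 higher genes of 1510 and 1523 lower genes of 1936 were protein-coding in RefSeq. Long non-coding RNAs made up 40 higher and 115 lower genes, and 42 higher and 203 lower genes had no RefSeq match. No read was counted in any Ctrl library for 10 higher genes and in any knockout library for 36 lower genes, and 0 of these passed the filter. Members were spread over the genome: on the autosomes and the X chromosome, 7.00% to 10.8% of genes that passed were higher and 7.90% to 11.9% lower. Within 5 Mb of the start of Emx1 (chr6:85187931-85204463), the locus that drives Cre, 14 of 103 genes that passed were members (13.6% in either direction, against 18.1% of all genes that passed). Around Fto (chr8:91313367-91668433) it was 17 of 76 (22.4%) and around Mettl3 (chr14:52294841-52308741) 25 of 122 (20.5%).

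Whether footprints moved with the RNA was asked in the Ribo-seq libraries. Compared to Ctrl, M-cKO cortices had 277 of the 1376 higher genes with Ribo-seq counts called higher (20.1%, against 7.13% of all 14314 genes tested) and 14 called lower, and 276 of 1412 lower genes called lower (19.5%, against 7.50%) and 13 called higher (edgeR quasi-likelihood test, adjusted p below 0.05). The median log2 fold change was 0.21 for the higher genes, -0.28 for the lower genes and -0.00 for all genes. This count of calls in the RNA direction, 553 in all, fell to 49 without Ctrl replicate 2, to 114 without Ctrl replicate 1 and to 123 without Ctrl replicate 3, and was 218 without M-cKO replicate 1 and 360 without M-cKO replicate 2. The calls over all genes fell with it, from 1020 higher and 1073 lower to 115 and 62 without Ctrl replicate 2, 230 and 160 without Ctrl replicate 1, 269 and 192 without Ctrl replicate 3, 500 and 380 without M-cKO replicate 1, and 771 and 524 without M-cKO replicate 2. Without Ctrl replicate 2, 13 of 1376 higher genes were called higher, about the share over all 14307 genes, and 36 of 1412 lower genes lower. These counts were 52 and 62 without Ctrl replicate 1, and 58 and 65 without Ctrl replicate 3. Without overlap, the 3 M-cKO libraries were above Ctrl for 611 higher genes (44.4%, against 20.1% of all 14326 genes) and below it for 485 lower genes (34.3%, against 16.4%).

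In F-cKO no gene was called in Ribo-seq in either direction (0.00%) in the edgeR test. The deleted Fto was itself not called, with a log2 fold change of -2.67 and an adjusted p of 0.35 (edgeR). The absence of calls in this fit therefore does not show that footprints were unchanged. At an unadjusted p below 0.05, 19 of 1376 higher genes were higher (1.38%, against 1.58% of all 14335 genes) and 14 of 1413 lower genes lower (0.991%, against 0.635%), and DESeq2 called 1 of the higher genes higher and 0 of the lower genes lower, where it called 5 of all genes higher and 1 lower. These counts rest on F-cKO replicate 3: without it, at the same unadjusted p, 392 of 1376 higher genes were higher, with 1741 of all 14342 genes, and 274 of 1413 lower genes were lower, with 1020 of all genes, while no gene was called after adjustment (edgeR). Without F-cKO replicate 1, 65 higher genes were higher and 5 lower genes lower, with 687 and 33 of all genes, and without a Ctrl library 1 to 6 and 2 to 5, with 45 to 91 and 14 to 41 of all genes. Without F-cKO replicate 1, 77 of 1413 lower genes were also higher, against the RNA direction. Without F-cKO replicate 2, 18 higher genes were higher and 18 lower genes lower, with 339 and 218 of all genes. The 3 F-cKO libraries were above Ctrl without overlap for 65 higher genes (4.72%, against 4.33%) and below it for 58 lower genes (4.11%, against 3.28%). They differed among themselves. Relative to the mean of the Ctrl libraries on the log2(CPM + 0.5) scale, the higher genes had medians of 0.19, 0.13 and -0.02 in F-cKO replicates 1, 2 and 3 and of 0.23, 0.23 and 0.25 in M-cKO. For the lower genes the medians were -0.34, -0.22 and 0.08 in F-cKO and -0.35, -0.24 and -0.12 in M-cKO, and over all genes the 6 medians lay between -0.05 and 0.07. Each Ctrl library set against the other 2 gave -0.11 to 0.07 for the higher and -0.05 to 0.05 for the lower genes. F-cKO replicate 3 thus lay within the range of the Ctrl libraries for the higher genes and just above it for the lower genes, although its Fto level was that of an F-cKO library. F-cKO replicate 2 stood apart for some named genes. Notch1 footprints were at 19.0, 250 and 15.4 CPM in F-cKO and at 14.0 to 18.1 CPM in Ctrl. Tnc footprints were at 24.9, 319 and 40.2 CPM in F-cKO and at 31.9 to 42.6 CPM in Ctrl.

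**Figure D4:**
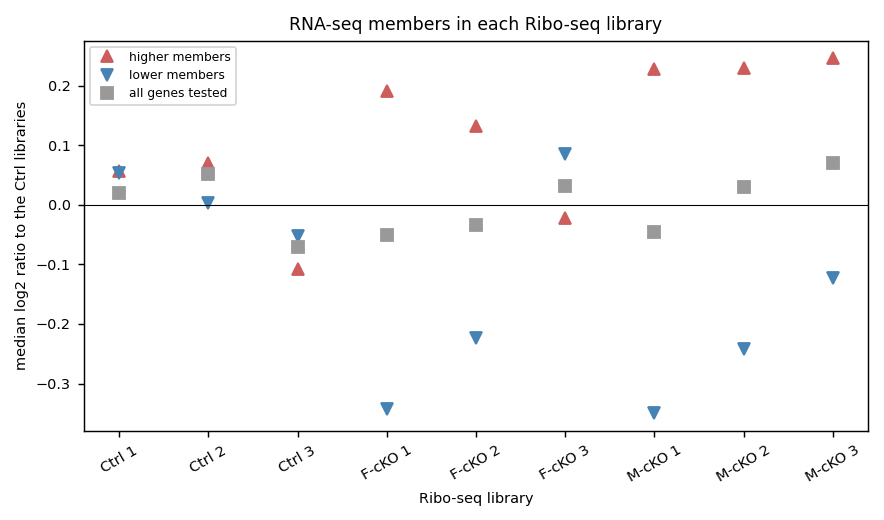
Median log2 ratio of each Ribo-seq library to the mean of the Ctrl libraries (a Ctrl library to the other 2), for the genes higher or lower in RNA-seq and for all genes tested. In 5 knockout libraries the higher genes lie above and the lower genes below all genes, and in F-cKO 3 they do not (-0.02 and 0.08).

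Taking both knockouts against Ctrl in Ribo-seq, no gene was called in either direction by edgeR (0.00% of 14326, smallest adjusted p 0.106). At an unadjusted p below 0.05, 235 of 1376 higher genes were higher (17.1%, against 5.79%) and 13 lower, and 169 of 1412 lower genes were lower (11.97%, against 4.96%) and 16 higher. These counts rose to 481 and 372 without F-cKO replicate 3, with 1781 and 1419 of all genes. They were 118 and 71 without Ctrl replicate 1 (377 and 290 of all genes), 99 and 81 without Ctrl replicate 2 (348 and 289) and 96 and 89 without Ctrl replicate 3 (457 and 436). Without M-cKO replicate 1 they were 148 and 105 (669 and 542 of all genes) and without M-cKO replicate 2 179 and 109 (578 and 472). Without F-cKO replicate 1 they were 216 and 126 (896 and 615 of all genes) and without F-cKO replicate 2 295 and 240 (1299 and 1035). After adjustment, edgeR called 5 of all genes higher and 0 lower without F-cKO replicate 1, and 19 and 2 without F-cKO replicate 2. With all libraries, DESeq2 called 18 of the 1376 higher genes higher and 7 of the 1412 lower genes lower, and 3 in the other direction, where it called 112 of all 14326 genes higher and 49 lower. All 6 knockout libraries lay above Ctrl for 49 higher genes (3.56%, against 2.24%) and below it for 36 lower genes (2.55%, against 1.52%). Without F-cKO replicate 2 these became 72 (5.23%, against 4.35%) and 53 (3.75%, against 2.51%). Without F-cKO replicate 3, added like the former after the data were seen, they were 328 (23.8%, against 7.45%) and 291 (20.6%, against 7.27%), and edgeR called 31 of these genes in the RNA direction and 2 in the other, where it called 32 of all 14341 genes higher and 30 lower.

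Among the higher genes, Sox2, a factor of neural progenitors, had one of the smallest p values in Ribo-seq over both knockouts. Its footprints were at 60.9, 53.2 and 57.4 CPM in Ctrl, at 86.1, 74.5 and 58.2 CPM in F-cKO and at 128, 146 and 107 CPM in M-cKO. The M-cKO libraries were above all others, and the log2 fold change over both knockouts was 0.76 ± 0.17 (SE), with an adjusted p of 0.439. Mki67 had footprints at 240.5, 256 and 267 CPM in Ctrl, at 537, 489.5 and 235 CPM in F-cKO and at 483, 457 and 403 CPM in M-cKO, so that 5 knockout libraries lay above Ctrl and F-cKO replicate 3 below it. The phosphatase gene Dusp14 was at 11.5, 11.8 and 10.04 CPM in Ctrl, 15.7, 15.9 and 9.04 CPM in F-cKO and 33.3, 30.8 and 29.2 CPM in M-cKO. Npas3 was at 29.6 to 37.3 CPM in Ctrl, 32.3 to 38.6 CPM in F-cKO and 55.5 to 62.1 CPM in M-cKO, and Hbb-y at 0.158 to 0.390, 0.819 to 13.6 and 1.93 to 4.29 CPM.

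For the lower genes, Itpr1 had footprints at 231, 236 and 247 CPM in Ctrl, at 97.5, 177 and 236 CPM in F-cKO and at 57.4, 66.0 and 104 CPM in M-cKO, and its log2 fold change in M-cKO was -1.69 ± 0.19 (adjusted p 0.00504, edgeR). The spliceosome gene Snrpd1 had the smallest adjusted p over both knockouts among the lower genes (0.35, edgeR), at 127, 129 and 122 CPM in Ctrl, 105, 86.8 and 107 CPM in F-cKO and 63.9, 64.7 and 84.8 CPM in M-cKO, with no overlap. Trmt9b was at 18.6 to 20.6 CPM in Ctrl and 6.59 to 16.6 CPM in the knockouts, and Aox4, an aldehyde oxidase, at 5.64 to 7.75 CPM in Ctrl, 5.83 to 8.04 CPM in F-cKO and 1.67 to 2.16 CPM in M-cKO. Crym footprints were at 170.4, 184 and 142 CPM in Ctrl, 94.1, 57.0 and 194 CPM in F-cKO and 32.9, 37.1 and 71.6 CPM in M-cKO. Gfap was at 14.6, 8.31 and 8.14 CPM in Ctrl, 1.85, 2.28 and 13.3 CPM in F-cKO and 1.15, 1.31 and 2.67 CPM in M-cKO. For both genes F-cKO replicate 3 lay within or above Ctrl and the other 5 knockout libraries below it.

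Some footprints moved against the RNA. Ptp4a2, a tyrosine phosphatase, had 205 to 220.3 CPM of RNA in Ctrl and 224 to 261 CPM in the knockouts, but footprints at 94.6, 92.4 and 86.6 CPM in Ctrl, 51.3, 81.3 and 75.7 CPM in F-cKO and 56.8, 45.3 and 59.1 CPM in M-cKO. Its Ribo-seq log2 fold change was -0.79 ± 0.11 in M-cKO (adjusted p 0.00979, edgeR). The kinase Mapk6 (164 to 184 CPM in Ctrl, 125 to 183 CPM in F-cKO and 104 to 122 CPM in M-cKO) and the splicing factor Tra2b (207 to 235, 175 to 226 and 151 to 154 CPM) had footprints lower in M-cKO in the same way, with log2 fold changes of -0.68 ± 0.10 and -0.54 ± 0.09. Without Ctrl replicate 2 the adjusted p (edgeR) was 0.0571 for Ptp4a2, 0.065 for Mapk6 and 0.0612 for Tra2b, and Tra2b also lost its call without Ctrl replicate 1 or 3 (0.0537 and 0.0519). The RNA of Mapk6 was at 173 to 184 CPM in Ctrl and 191 to 219 CPM in the knockouts. Tra2b RNA was barely separated, at 219 to 226 CPM in Ctrl and 226 to 250 CPM in the knockouts, with a gap of 0.0019. Its RNA log2 fold change in M-cKO was 0.08, so there was little RNA rise for its footprints to oppose. In the opposite direction, mt-Nd4 RNA was at 1321 to 1845 CPM in Ctrl and 888 to 1156 CPM in the knockouts, whereas its few Ribo-seq counts were at 1.56, 2.46 and 1.17 CPM in Ctrl, 4.77, 20.4 and 2.22 CPM in F-cKO and 8.60, 32.4 and 4.83 CPM in M-cKO. The non-coding Gm15728, at 3.43 to 4.05 CPM of RNA in Ctrl and 2.19 to 3.19 CPM in the knockouts, had Ribo-seq counts at 4.72 to 9.20 CPM in Ctrl, 0.456 to 8.75 CPM in F-cKO and 152 to 220.4 CPM in M-cKO. The small nucleolar RNA Gm23136, under 1 CPM in every RNA-seq library, was at 5.08 to 10.7 CPM in Ctrl and 9.53 to 139 CPM in the knockouts. Fragments of non-coding RNA in a Ribo-seq library need not come from ribosomes.

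By list, beside 7.13% of all genes called higher and 7.50% lower, the Ribo-seq test of M-cKO called 8 of 30 mitosis genes higher and 0 lower, 2 of 23 DNA replication genes higher and 0 lower, 8 of 34 chromatin enzymes and 9 of 20 m6A genes higher and 0 lower in both lists. It called 3 of 9 upper-layer genes lower and 0 higher, and 2 of 11 GABA-A subunits lower and 0 higher. Among the other neuronal lists, 1 of 39 genes of glutamate receptors and scaffolds was called higher and 3 lower, with a median log2 fold change of 0.12. Channel genes had 1 of 39 called higher and 5 lower (median 0.01), and presynaptic genes 1 of 27 higher and 4 lower (median -0.05), and in each of the 3 lists most genes were not called. In the RGC list 49 of 471 genes were called higher and 46 lower, 28 of 322 of the IP list higher and 21 lower, 4 of 17 radial glia genes higher and 3 lower, 0 of 10 intermediate progenitor genes higher and 1 lower, and 2 of 8 mitochondrial genome genes higher and 0 lower. Of 74 respiratory chain genes 4 were called higher and 11 lower, and of 79 ribosomal protein genes 4 higher and 7 lower. Of 31 proteasome genes 0 were called higher and 6 lower, of 11 astroglial genes 0 and 3, and of 10 deep-layer genes 3 and 2. Among markers, 5 of 10 of ganglionic eminence and interneurons and 3 of 6 of striatum were called higher, and 0 lower in both.

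A shared direction leaves room for a difference in size between M-cKO and F-cKO. The rule used the same 6 knockout libraries and bounds how far they can differ, so the calls of the edgeR fit between them are given as a description, for single genes as well as for shares, and not as a test. Of 1458 higher genes, 222 were higher in M-cKO than in F-cKO (15.2%, against 13.1% of all 16802 genes tested) and 123 were lower (8.44%, against 14.3%). Of 1616 lower genes, 39 were higher in M-cKO (2.41%, against 13.1%) and 175 lower (10.8%, against 14.3%). The median log2 difference was 0.01 for the higher and -0.03 for the lower genes. Without F-cKO replicate 2, 130 higher genes were higher in M-cKO and 83 lower genes were lower, and the calls over all genes fell from 2196 higher and 2403 lower to 1442 and 1325. Without M-cKO replicate 2, 55 higher genes were lower in M-cKO, against 123, with 1580 and 1500 calls over all genes. Without F-cKO replicate 1 or M-cKO replicate 3, 75 and 13 lower genes were higher in M-cKO, against 39, with 2342 and 1749 of all genes called higher.

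Fam110a, which encodes a centrosomal protein, had the smallest adjusted p among higher genes that were higher in M-cKO. Its RNA was at 35.8, 39.0 and 35.0 CPM in Ctrl, at 41.7, 43.3 and 44.9 CPM in F-cKO and at 85.7, 77.3 and 88.6 CPM in M-cKO. F-cKO lay just above Ctrl and M-cKO far above both, with a log2 difference between knockouts of 0.93 ± 0.07 (SE). The zinc finger factors Sall2 (64.5 to 74.5 CPM in Ctrl, 78.5 to 81.3 CPM in F-cKO and 129.6 to 139 CPM in M-cKO) and Zfp423 (32.2 to 39.4, 43.8 to 45.1 and 71.8 to 74.1 CPM) had the same order, with log2 differences of 0.72 and 0.69. Sall2 (chr14:52311177-52328670) lies beside the deleted Mettl3 gene (chr14:52294841-52308741). The part of the altered Mettl3 locus in the level of Sall2 was not tested. Fam110a, Sall2 and Zfp423 were also higher in M-cKO in Ribo-seq, where Zfp423 was at 38.2, 37.7 and 38.6 CPM in Ctrl, at 47.7, 71.8 and 36.0 CPM in F-cKO and at 81.0, 75.3 and 73.4 CPM in M-cKO.

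Gabra2, Gipr and Ccbe1 were the lower genes with the smallest adjusted p below F-cKO. Gabra2 RNA was at 53.9, 52.2 and 78.7 CPM in Ctrl, at 47.7, 47.2 and 46.1 CPM in F-cKO and at 22.8, 20.9 and 21.1 CPM in M-cKO, a log2 difference between knockouts of -1.14. Gipr, the receptor of glucose-dependent insulinotropic polypeptide, was at 71.5, 95.4 and 114 CPM in Ctrl, 59.3, 68.3 and 50.6 CPM in F-cKO and 19.7, 21.4 and 19.9 CPM in M-cKO. Ccbe1, a secreted factor of lymphatic growth, was at 30.3, 30.4 and 38.0 CPM in Ctrl, 20.7, 19.5 and 18.2 CPM in F-cKO and 7.17, 6.12 and 7.08 CPM in M-cKO. For all 3 genes the F-cKO libraries lay between the other groups, an order that the choice of the genes fixes.

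**Figure D5:**
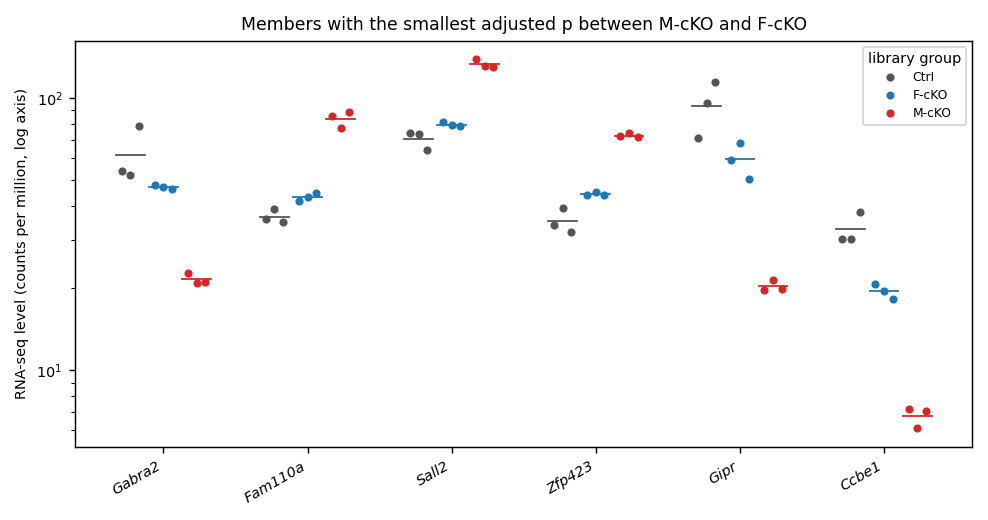
RNA-seq level in CPM, on a log axis, of the 6 genes of the shared response with the smallest adjusted p between M-cKO and F-cKO, 3 of each sign. Points are libraries and bars group means (3 libraries each), and the choice of the genes places F-cKO between Ctrl and M-cKO.

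The same contrast that chose the genes gave, by construction, one sign for each set, and is given for scale alone. In the fit of both knockouts together, 1350 of 1458 higher genes were called higher (14.3% of all 17376 genes tested were) and 1310 of 1686 lower genes were called lower (11.1%). Without Ctrl replicate 3, 996 and 686 of them were called, with 1375 and 829 of all 17721 genes. In F-cKO the median log2 fold change was 0.39 for the higher and -0.38 for the lower genes, and in M-cKO it was 0.41 and -0.41. In F-cKO 976 of 1444 higher genes were called higher (11.5% of all genes were) and 889 of 1686 lower genes lower (9.57%), and in M-cKO 1132 of 1449 (15.5%) and 1149 of 1686 (14.1%).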

How the data were processed

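RNA-seq and Ribo-seq were performed on E15.5 cortices, with 3 libraries for each of 3 genotypes in each assay (18 in all). Groups were taken from the sample labels. The study's text calls the 3 RNA-seq libraries of a line biological replicates. For Ribo-seq its methods speak of 3 cortical samples "from 1 L", an abbreviation that is not explained. Which animals each library holds is not stated further in the sources used here, so p-values measure the spread between libraries. For RNA-seq the authors aligned paired-end reads with HISAT2 2.0.5 and deposited raw counts per gene. The tool that counted them is not given in the sources used here. The deposited FPKM values came from the authors' same alignments and served for transcript length and as an alternative scale. For Ribo-seq the authors mapped fragments with TopHat2 and deposited counts per gene from HTSeq. The submitters' processing notes name mm10 and DESeq2 1.14.1. Annotation and promoters are from RefSeq GRCm38.p6, the same build, and matched 38619 of 55153 genes. In Ribo-seq, 40490 of 54838 genes have blank counts and were left out, which leaves 14348.

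CPM was computed over all counted reads. Counts were fitted in R 4.3.3 with edgeR 4.0.16 (filterByExpr with a minimum count of 10 and a minimum total count of 15, TMM scaling, quasi-likelihood test), with Benjamini-Hochberg adjusted p below 0.05 over all genes of a comparison and no limit on the fold change. The tests were checked on simulated data. Members and gene lists were chosen with earlier results of these data known, so they are no independent support. Because the rule uses RNA-seq levels of knockouts and Ctrl, RNA-seq fits against Ctrl are printed for scale alone and nothing is read from them. The fit of M-cKO against F-cKO uses the same knockout libraries as the rule and is given as a description. Tests were read in Ribo-seq. Named genes were Fto and Mettl3, the 8 protein-coding members per direction with the widest gap (mean CPM of at least 1), up to 3 members per gene list with the widest gap, the 4 members per direction with the smallest adjusted p in Ribo-seq of both knockouts moving with the RNA and the 3 moving against it, the 3 per sign between M-cKO and F-cKO, and the 2 on each side of the limit. Other genes named belong to a list, and a few genes that the rule takes are not reported here. Alternatives were DESeq2 1.42.0, RLE scaling, no filter, the replicate number as a block, all 9 libraries in a fit, protein-coding genes only and each library left out. The depth sets the precision, and counts of reads are not independent molecules.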

Additional observations from a re-analysis of the deposited data

Results flagged for a closer look

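Some genes of the shared response were called between the knockouts in RNA-seq by the edgeR fit of M-cKO against F-cKO, which uses libraries that also chose the genes, so the values are a description. The 3 of each sign with the smallest adjusted p are given. The log2 difference, M-cKO minus F-cKO, was 0.933 for Fam110a, 0.717 for Sall2 and 0.691 for Zfp423, which were higher in M-cKO. It was -1.14 for Gabra2, -1.57 for Gipr and -1.54 for Ccbe1, which were lower. All 3 M-cKO libraries lay beyond all 3 F-cKO libraries for each of these genes. Sall2 lies beside the deleted Mettl3 gene on chromosome 14, and the part of that locus in its level was not tested.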

How the results depend on the processing

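The number of genes in the shared response depended on the gap asked for: with a gap of at least 0.1 on the log2 scale, 717 were higher and 925 lower. The balance of 1510 higher and 1936 lower genes turned with the scaling: TMM gave 1761 and 1657, FPKM 1736 and 1695, and RLE 1712 and 1714. Leaving out each library in turn gave 1607 to 2274 higher and 2109 to 3057 lower genes, which the rule makes larger by construction. In RNA-seq against Ctrl, leaving out a library gave 1375 to 2418 genes called higher and 829 to 1998 lower for both knockouts, 984 to 1868 and 559 to 1606 for F-cKO, and 2048 to 2584 and 1498 to 2146 for M-cKO, each lowest without Ctrl replicate 3. Between M-cKO and F-cKO it gave 130 to 229 higher genes called higher, 55 to 110 called lower, 13 to 75 lower genes called higher and 83 to 170 called lower. Over all genes there, 1442 to 2342 were called higher and 1325 to 2224 lower. With no filter on low counts 78 of 1900 lower genes were called higher, as were 2801 of all 30412 genes. In Ribo-seq, leaving out a library gave 49 to 688 genes called in the RNA direction and 2 to 33 in the other for M-cKO, 0 to 31 and 0 to 2 for both knockouts, and 0 to 0 and 0 to 0 for F-cKO. Over all genes in Ribo-seq, 115 to 1303 were called higher and 62 to 1244 lower for M-cKO. For both knockouts these were 0 to 32 and 0 to 30, and for F-cKO 0 to 0 and 0 to 1. DESeq2 called 25 genes in the RNA direction and 3 in the other for both knockouts, 1 in the RNA direction for F-cKO, and for M-cKO 397 higher genes higher and 375 lower genes lower, with 46 in the other direction, among 1602 of all genes called higher and 1505 lower. The cause was not tested.

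Samples of the same replicate number showed no strong joint deviation, with correlations of -0.14 to 0.16 in RNA-seq and -0.28 to 0.16 in Ribo-seq. Samples of differing numbers were not compared in this way, so these values cannot settle whether the numbers pair the samples. The main fits took no pairs. With the replicate number as a block, F-cKO against Ctrl had 1275 genes called higher and 855 lower in RNA-seq, 25 lower genes were called higher in M-cKO than in F-cKO, and 13 genes were called against the RNA direction in Ribo-seq of M-cKO. With that block, 1827 of all 16802 genes were called higher in M-cKO than in F-cKO. Over all genes, Ribo-seq of M-cKO then had 681 called higher and 638 lower. No named gene changed sign under the alternatives run, but calls were lost: with a library left out, 46 values of named genes no longer passed in Ribo-seq of M-cKO while 119 stayed on their side of the threshold, and 12 no longer passed in RNA-seq of both knockouts. Depth was lowest in F-cKO replicate 2 of Ribo-seq (10973699 counts), which limits the precision of its values.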
